A study of Drosophila melanogaster with 6 samples.

Results

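Long genes of at least 50 kb were examined as a class in nascent transcription of stage 5 Drosophila melanogaster embryos. Members were the rows of the GRO-seq count table with a gene length of 50000 bases or more, leaving out Antp, Ubx, bru2, bru3 and every symbol that starts with beat, dpr, DIP- or side. The table held 17753 rows, of which 321 reached the length, 21 were left out by symbol and 300 were members. By length, 144 members lay at 50 to 75 kb, 70 at 75 to 100 kb, 61 at 100 to 150 kb and 25 at 150 kb or more. The median member spanned 76206.5 bases, against 1694 bases over all rows. Their exons together covered a median of 10.1% of the gene, against 89.7% over all rows, so that most of a member is intron. By annotation 287 members were protein-coding, 11 were non-coding RNAs and 2 had no match in the annotation used here. The rule used length only, and no measured value.

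The DomKD embryos (genotype label t216) came from mothers that expressed a small hairpin RNA against domino in the germline, driven by a maternal alpha-tubulin Gal4. The hairpin targets both protein isoforms and acts on what the mother supplies to the egg. The Ctrl embryos (genotype label t180) came from mothers of the control hairpin line. Both groups were picked by hand at stage 5, when the zygotic genome becomes active, and each library is a pool of whole embryos with all their cell types, so that a change in the number of cells that transcribe a gene and a change in transcription per cell cannot be told apart. There were 3 libraries a group, with a letter A or B before the replicate number in the titles. The titles do not say what the letter stands for, and it was taken here as a batch. Batch A held DomKD A1, DomKD A2 and Ctrl A1, and batch B held DomKD B1, Ctrl B1 and Ctrl B2.

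GRO-seq labels the RNA that engaged polymerases extend in isolated nuclei, so reads fall along the whole transcribed span, introns included. A polymerase needs longer to cross a long gene, and in the fly syncytium short nuclear cycles are known to limit how much of a long unit can be completed before mitosis. Many early zygotic genes are short and have few introns, whereas genes with long introns are known to include transcription factors, adhesion and guidance molecules, ion channels and RNA-binding proteins. Domino is the fly chromatin remodeller that places the histone variant H2A.Z, and the comparison asks how much nascent signal long genes carry in control embryos and how it moves once maternal Domino is depleted.

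The starts of long genes are shown first, because nascent signal begins there. Each window runs 5′ to 3′ from 250 bases before to 50 bases after the most upstream annotated start, in dm6. The members shown had the largest changes on arms X, 2L, 3L and 3R among those called in the same direction under all 5 ways of scaling the libraries described further on. Capitals mark matches on either strand to the Zelda motif CAGGTAG, the DNA replication-related element TATCGATA, the repeat GAGAGAG, the initiator letters TCAGT or the TATA box letters TATAAA, each searched separately, so that matches could overlap. The 3 windows of members higher in DomKD were those of axo (chr3L:4687268-4687567, minus strand), nAChRalpha3 (chrX:8367120-8367419, minus strand) and cic (chr3R:20252520-20252819, plus strand).
axo: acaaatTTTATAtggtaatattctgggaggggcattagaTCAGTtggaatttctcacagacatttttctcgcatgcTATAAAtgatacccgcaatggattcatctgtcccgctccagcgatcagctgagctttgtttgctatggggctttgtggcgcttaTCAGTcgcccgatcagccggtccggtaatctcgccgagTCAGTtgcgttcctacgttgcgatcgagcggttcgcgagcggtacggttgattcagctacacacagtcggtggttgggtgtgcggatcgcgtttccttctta
nAChRalpha3: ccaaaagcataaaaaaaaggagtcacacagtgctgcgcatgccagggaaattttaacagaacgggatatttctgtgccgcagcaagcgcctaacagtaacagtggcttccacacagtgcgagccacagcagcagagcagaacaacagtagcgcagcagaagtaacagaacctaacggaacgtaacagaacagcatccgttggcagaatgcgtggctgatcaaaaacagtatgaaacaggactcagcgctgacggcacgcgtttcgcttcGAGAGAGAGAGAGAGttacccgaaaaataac
cic: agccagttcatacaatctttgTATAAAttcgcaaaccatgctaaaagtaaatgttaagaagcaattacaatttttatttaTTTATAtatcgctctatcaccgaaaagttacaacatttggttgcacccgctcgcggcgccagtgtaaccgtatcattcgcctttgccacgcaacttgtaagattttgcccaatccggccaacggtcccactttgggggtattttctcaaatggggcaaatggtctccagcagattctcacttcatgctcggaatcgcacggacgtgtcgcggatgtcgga
The 3 windows of members lower in DomKD were those of Flo2 (chrX:14839126-14839425, plus strand), Pde1c (chr2L:11928523-11928822, minus strand) and timeout (chr3R:13088401-13088700, plus strand).
Flo2: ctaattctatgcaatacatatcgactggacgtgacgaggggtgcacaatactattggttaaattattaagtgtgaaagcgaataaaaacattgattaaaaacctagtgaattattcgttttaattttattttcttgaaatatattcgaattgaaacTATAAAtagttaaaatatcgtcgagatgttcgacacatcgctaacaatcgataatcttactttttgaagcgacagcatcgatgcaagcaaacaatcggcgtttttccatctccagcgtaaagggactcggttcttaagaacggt
Pde1c: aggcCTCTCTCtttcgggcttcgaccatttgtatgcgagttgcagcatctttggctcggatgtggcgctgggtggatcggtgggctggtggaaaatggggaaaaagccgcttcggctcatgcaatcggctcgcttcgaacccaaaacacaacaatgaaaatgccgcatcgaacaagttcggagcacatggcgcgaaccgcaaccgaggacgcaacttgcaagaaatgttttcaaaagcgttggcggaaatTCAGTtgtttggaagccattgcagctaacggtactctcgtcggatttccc
timeout: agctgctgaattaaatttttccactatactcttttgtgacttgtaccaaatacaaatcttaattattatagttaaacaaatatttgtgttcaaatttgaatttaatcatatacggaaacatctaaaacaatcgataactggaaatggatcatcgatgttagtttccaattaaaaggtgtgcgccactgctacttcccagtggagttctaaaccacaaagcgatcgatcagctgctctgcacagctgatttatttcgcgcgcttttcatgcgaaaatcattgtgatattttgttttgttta
The nAChRalpha3 window held 5 overlapping copies of the GAGA repeat just after the start, and the axo window 3 initiator matches and 2 TATA box matches. The cic window held 2 TATA box matches. The Flo2 window held 1 TATA box match, the Pde1c window 1 GAGA repeat and 1 initiator match, and the timeout window held none of the 5 motifs.

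Over all windows read, members and rows of 20 to 50 kb were alike in base composition and in the GAGA repeat, and both differed from all rows. The median window of the 298 members with a position was 44% G and C, against 38.3% over the 17549 rows read and 45% in rows of 20 to 50 kb. The GAGA repeat stood in 18.8% of member windows (56 of 298), against 5.61% of all windows, and in 19.1% of the windows of rows of 20 to 50 kb. The DNA replication-related element stood in 4.36% of member windows against 7.62% of all, the Zelda motif in 0.67% against 1.62%, the initiator letters in 57.7% against 50.7% and the TATA box letters in 29.5% against 44.4%. Among members later called higher in DomKD, 23 of 91 windows (25.3%) held the GAGA repeat, against 4 of 17 (23.5%) of those called lower and 27 of 181 (14.9%) of those not called. Among tested rows under 50 kb the same repeat stood in 13.2% of the windows of rows called higher and in 1.33% of those called lower. The DNA replication-related element stood in 3 of 91 windows of members called higher (3.3%) and in 3 of 17 of those called lower (17.6%). These shares are descriptions of letters in a window, and most members have further starts that the window does not reach.

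Library totals were 10660708 to 15790602 counts in DomKD and 12487166 to 24537992 counts in Ctrl, and reads were counted without removal of duplicates. Of the 10429 genes tested, 564 to 1014 had no read in a DomKD library and 162 to 326 in a Ctrl library. Count rates scaled to 1e6 counts (CPM) below are scaled by the TMM method unless another scaling is named. Under TMM all 22 tested stage 5 zygotic markers, such as Kr, eve and ftz, were called higher in DomKD, against 12.1% of all tested genes. The summed marker level was 19366 to 31502 CPM in DomKD and 7553 to 15540 CPM in Ctrl, and Sry-alpha and ind were at 0 in every library. The size of this rise depended on the scaling, as described further on for long genes. The markers' median log2 fold change of 1.13 under TMM shrank to 0.65 under total counts and 0.17 under Zelda list scaling. Over all tested genes the median was -0.07, -0.56 and -1.03 in the same order. Lists of later neuronal, muscle, and epidermal and tracheal markers summed to at most 754 CPM in every library and their ranges overlapped between groups. Maternal germline markers summed to 1889 to 2256 CPM in DomKD and 1349 to 1592 CPM in Ctrl, with 6 of 18 tested markers higher and 1 lower under TMM. The median log2 fold change of these 18 turned from 0.26 under TMM to -0.27 under total counts and -0.81 under Zelda list scaling. Yolk, fat body and follicle cell markers stayed at or under 14.9 CPM. The part of these shifts in the changes of long genes was not tested. Nascent signal at dom was 774 ± 167 CPM in DomKD and 789 ± 72.9 CPM in Ctrl (SD, n = 3 each), which does not check the depletion, since the hairpin acts on RNA of the mother.

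Long genes carried about 1 count in 8 of the nascent signal in both groups. They took 12.1%, 12.3% and 13.6% of all counts in DomKD A1, A2 and B1, against 12.2%, 11.8% and 11.7% in Ctrl A1, B1 and B2. The groups overlapped, since Ctrl A1 lay above DomKD A1. The mean share was 12.6% ± 0.80 in DomKD and 11.9% ± 0.25 in Ctrl (SD, n = 3 each), a difference of 0.77 percentage points. Within batch A the difference was 0.03 points, within batch B it was 1.83 points, without DomKD B1 it was 0.31 points, and over the 131 members that overlap no other gene on their strand the difference was -0.17 points. Members make up 1.69% of the rows and 29.5% of the summed row length, so their share of counts was well under their share of sequence.

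By band, the share of counts thinned out with length while the share of sequence did not. Genes of 50 to 75 kb held 5.01%, 5.11% and 5.49% of counts in the DomKD libraries, against 4.95%, 4.80% and 4.65% in the Ctrl libraries. Genes of 100 to 150 kb held 3.19%, 3.20% and 3.57% in DomKD, against 3.14%, 3.00% and 2.97% in Ctrl. In both of these bands all DomKD libraries lay above all Ctrl libraries, though DomKD A1 and Ctrl A1 were close. Genes of 75 to 100 kb held 3.16% to 3.56% in DomKD and 3.04% to 3.24% in Ctrl, and genes of 150 kb or more 0.75% to 0.95% in DomKD and 0.82% to 0.95% in Ctrl, overlapping in each case. The 25 genes of the longest band make up 7.61% of summed row length, so this is the band with the fewest counts for its size.

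**Figure D1:**
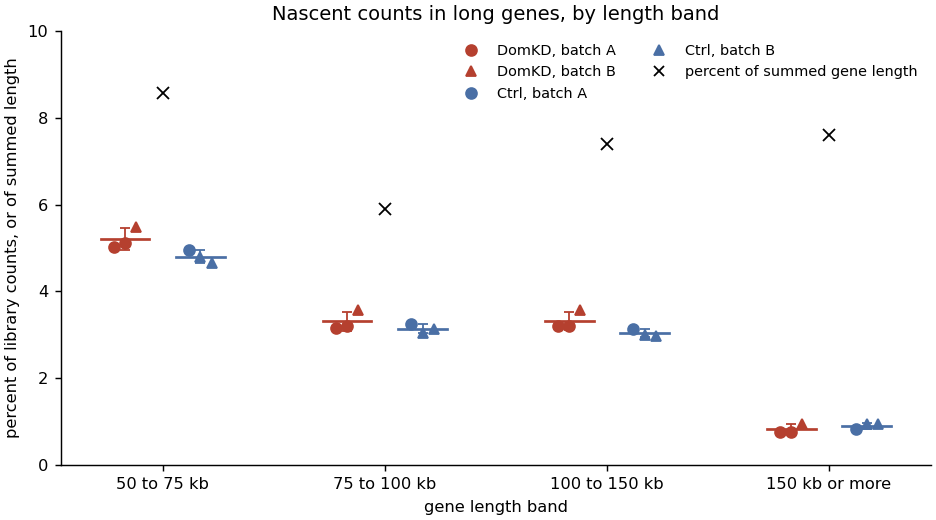
Percent of each library's counts that fell in long genes of each length band (points, circles for batch A and triangles for batch B; horizontal lines and error bars, mean and SD of 3 libraries), with crosses for the band's percent of the summed length of all rows. Every band holds a lower percent of counts than of length, and the longest band, at 0.75% to 0.95% of counts, holds the least.

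Per kilobase, the median over tested genes was lower in long genes than in each shorter band. The median tested gene had 9.83 CPM per kb in DomKD and 12.5 CPM per kb in Ctrl at under 2 kb, 3.06 in DomKD and 2.73 in Ctrl at 10 to 20 kb, and 1.56 in DomKD and 1.41 in Ctrl at 20 to 50 kb. Over all tested long genes the median was 0.97, 0.94 and 1.05 CPM per kb in DomKD A1, A2 and B1, against 0.74, 0.69 and 0.71 in Ctrl A1, B1 and B2. The DomKD libraries therefore all lay above the Ctrl libraries for long genes on this scale, and below them for genes under 10 kb. Within the long bands the Ctrl median was 0.67, 1.18, 0.84 and 0.33 CPM per kb from the shortest to the longest band, with no steady order among the first 3. Across the 291 tested members, length and Ctrl counts per kb had a rank correlation of -0.005, against -0.29 across all 10429 tested genes, which share the same libraries and are not independent. These medians leave out untested rows, and 42.0% of rows under 2 kb were tested against 97% of long genes. Over all rows, tested or not, the Ctrl medians of a library were 0 to 0.051 CPM per kb under 2 kb, 4.08 to 4.602 at 5 to 10 kb and 0.64 to 0.67 in long genes. Without that filter long genes thus lay above rows under 2 kb and below the other shorter bands. The order among the shorter bands also depends on the filter.

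A few members carried most of the signal. The 10 members with the highest level made up 30.3% of the members' CPM in Ctrl, the first 30 made up 57.2% and the first 50 made up 72.5%. The densest of the band of 50 to 75 kb were lola, sli and psq. The BTB transcription factor gene lola (chr2R:10481894-10543291) had 8003, 7258 and 6892 CPM in libraries A1, A2 and B1 of DomKD, against 4658, 4102 and 2968 CPM in libraries A1, B1 and B2 of Ctrl. The Slit ligand gene sli (chr2R:15869495-15922118) had 5487, 5061 and 4369 CPM in DomKD, against 2777, 2195 and 1751 CPM in Ctrl. All DomKD libraries lay above all Ctrl libraries at both genes, and both passed the test, with log2 fold changes of 0.84 ± 0.19 at lola and 1.04 ± 0.18 at sli (SE).

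Among genes of 75 to 100 kb the densest were ed, an immunoglobulin adhesion gene, nmo, which encodes the kinase Nemo, and Sdc, which encodes Syndecan. At ed (chr2L:4031377-4115749) the level was 4951, 4971 and 5882 CPM in DomKD, against 3751, 3654 and 3171 CPM in Ctrl, and edgeR gave a log2 fold change of 0.59 ± 0.18 (SE, adjusted p = 0.032). At nmo the groups did not overlap but the gene did not pass the test (log2 fold change 0.42, edgeR adjusted p = 0.10), and at Sdc they overlapped (0.33, edgeR adjusted p = 0.23). Among genes of 100 to 150 kb the homeodomain gene hth (chr3R:10507561-10639568) had 6643, 6607 and 6935 CPM in DomKD, against 5204, 4609 and 3682 CPM in Ctrl, yet missed the threshold (0.55, edgeR adjusted p = 0.055). The junction scaffold gene pyd and the supervillin gene Svil, an actin-binding protein with 16 annotated starts, both rose, by 0.89 ± 0.19 and 1.01 ± 0.18 on the log2 scale (SE). In the longest band the densest were SKIP, sick and Ten-a, of which only sick passed the test, with 2022, 2009 and 1817 CPM in DomKD against 933, 1289 and 1094 CPM in Ctrl. With the Zelda list scaling the log2 fold changes of lola, ed, nmo, Sdc, hth, pyd, SKIP, sick and Ten-a were negative, and those of sli and Svil were 0.08 and 0.05.

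Relative to all tested genes, long genes shifted toward DomKD. The edgeR quasi-likelihood test, with batch as a covariate, ran over the 10429 genes that averaged 10 counts or more, and 291 of the 300 members were among them. It called 2264 genes at an adjusted p under 0.05 (21.7% of those tested), 1259 higher in DomKD (12.1%) and 1005 lower (9.64%). Of the tested members 91 were higher (31.3%), 17 were lower (5.84%) and 183 did not pass. Their median log2 fold change was 0.49, against -0.07 over all tested genes, a difference of 0.56, and 230 of 291 members (79%) lay above the median of all genes. Without any fit, the median log2 CPM of tested members exceeded that of all tested genes by 2.35, 2.39 and 2.47 in DomKD A1, A2 and B1, and by 1.61, 1.73 and 1.72 in Ctrl A1, B1 and B2. The groups were far apart on this measure against an SD of 0.06 among DomKD and 0.07 among Ctrl libraries.

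The sign of a long gene's change depends on how libraries are scaled. Another scaling moves the log2 fold changes of all genes by nearly the same amount, so the difference between members and all genes stays in place by construction and is no test of stability. Under TMM, RLE, upper quartile, total count and Zelda list scaling the median of all tested genes was -0.07, -0.02, -0.05, -0.56 and -1.03, and the difference of 0.56 for members was the same under each to the second decimal. The Zelda list scaling takes its size factors from 47 genes known as Zelda targets, since the methods scale on such targets too. With total counts 33 members were higher and 44 lower, against 5.16% of all tested genes higher and 26.3% lower. With the Zelda list 8 members were higher and 113 lower, against 0.93% of all genes higher and 43.9% lower, and 7 of the 91 members higher under TMM were then called lower. Under all 5 scalings the same 8 members were higher (axo, btsz, cic, mbl, nAChRalpha3, pros, shn and tei) and the same 14 lower. These 8 are the members higher with the Zelda list, 2.75% of those tested, against 0.93% of all tested genes. How many of all tested genes passed under all 5 scalings was not counted. For the falls a call under all 5 says little, since total counts and the Zelda list move all log2 fold changes down from TMM. No external standard was used here that would settle the scale, so that "higher" and "lower" below mean TMM scaling unless said otherwise.

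The number of calls depended on single libraries. Without DomKD B1 the difference of medians was 0.40. There edgeR called 1 member, mbl, higher and none lower, and 6 higher and 3 lower of 10450 genes in all. Without Ctrl A1 it called 30 members higher (10.3%) and 3 lower (1.03%), with a difference of 0.67. Of all tested genes 4.38% were then higher and 1.81% lower. Without Ctrl B1, Ctrl B2, DomKD A2 or DomKD A1 it called 65, 71, 74 or 98 members higher (22.3%, 24.4%, 25.4% or 33.7%). The same fits called 8.63%, 9.14%, 10.7% or 14.5% of all tested genes higher. Lower were 8, 9, 14 or 17 members (2.75%, 3.09%, 4.81% or 5.84%) and 3.88%, 3.91%, 9.73% or 15.1% of all tested genes. All 91 members called higher and all 17 called lower had the same sign of change in batch A and in batch B when each was fitted alone. These members were called from the same libraries with batch in the fit, so equal signs were likely in advance and do not show replication. The difference of medians over tested members was 0.39 in batch A and 0.68 in batch B.

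By length, the shift was in place from 20 kb and did not grow steadily beyond it. The median log2 fold change was -0.12 under 2 kb, -0.30 at 2 to 5 kb, -0.08 at 5 to 10 kb, 0.32 at 10 to 20 kb and 0.49 at 20 to 50 kb. In the long bands it was 0.41, 0.64, 0.48 and 0.59 from 50 to 75 kb upward. Across the 291 tested members, length and log2 fold change had a rank correlation of 0.05. The 50 kb limit thus marks no step in these data, and the neighbours of the limit mixed both outcomes, with ab called higher and Sytbeta, pHCl-1 and ftz-f1 not called just inside it, and Octalpha2R and NetA called higher and Dyrk2 and Plc21C not called just outside it. The share of members called higher was 23.4% (33 of 141), 36.8% (25 of 68), 40.7% (24 of 59) and 39.1% (9 of 23) from the shortest to the longest long band, against 24.9% at 20 to 50 kb and 12.1% over all genes. The share called lower was 7.09%, 7.35%, 1.69% and 4.35%, so that in the 2 longest bands only Pde1c and pum were lower. Differences between bands were not tested.

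**Figure D2:**
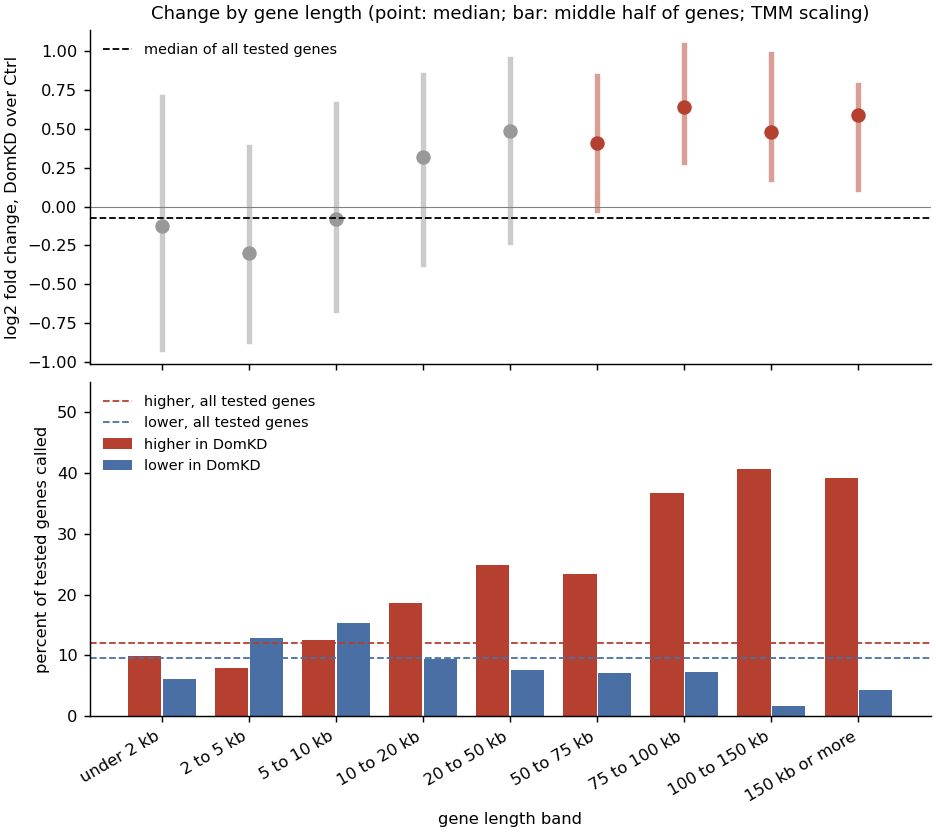
Upper panel, log2 fold change of DomKD over Ctrl by gene length (points, median; bars, interquartile range; dashed line, median of all tested genes at -0.07); lower panel, percent of tested genes called higher or lower in DomKD with dashed lines at the percents over all genes, 12.1% and 9.64%. Medians lie between 0.41 and 0.64 in the long bands and at 0.49 in genes of 20 to 50 kb, while bands under 10 kb lie at or below -0.08.

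Long genes have more counts than short ones, with a median of 1216 counts a library in tested members and 341 in all tested genes, so the comparison was also made within classes of mean count, a split chosen after seeing the data. At 100 to 1000 counts the median log2 fold change was 0.58 in 98 long genes, 0.49 in 216 genes of 20 to 50 kb and -0.39 in 4370 genes under 20 kb. At 1000 to 10000 counts it was 0.36, 0.17 and 0.05 in the same order of length. At 10000 counts or more the order turned, with 0.60 in 56 long genes and 0.94 in 177 genes under 20 kb. In that class 30 of 56 long genes were higher (53.6%), against 133 of 177 genes under 20 kb (75.1%). Long genes therefore stood above genes under 20 kb in the 3 lower classes and below them in the class with the most counts. The classes match genes by counts over the whole row and not by counts per kb. At 10 to 100 counts 1 of 38 long genes was called, 1 of 151 genes of 20 to 50 kb, and 39 higher and 23 lower of 2860 genes under 20 kb, so that few genes of any length passed there.

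**Figure D3:**
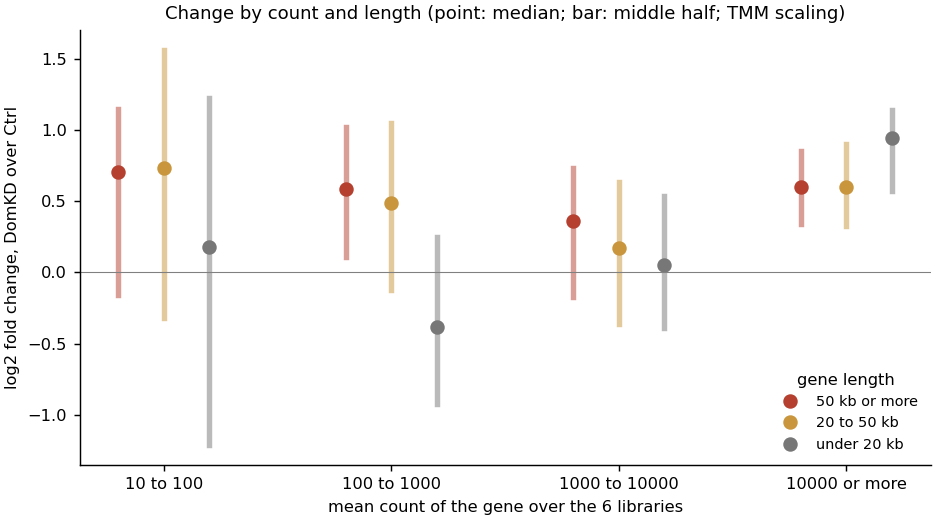
Log2 fold change of DomKD over Ctrl (points, median; bars, interquartile range) by the gene's mean count over the 6 libraries, for genes of 50 kb or more, 20 to 50 kb and under 20 kb. Long genes lie at 0.36 to 0.71 in all 4 classes, whereas genes under 20 kb range from -0.39 to 0.94.

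The largest rise of any called member was at Mp, which encodes the collagen Multiplexin, at 2.94 on the log2 scale with a mean of 87.2 counts. Among called members averaging 100 counts or more whose groups did not overlap, Neto (chrX:13445903-13527282), which encodes an auxiliary protein of glutamate receptors, had 18.5, 13.6 and 18.2 CPM in libraries A1, A2 and B1 of DomKD, against 1.49, 7.17 and 4.48 CPM in libraries A1, B1 and B2 of Ctrl. Gfrl (chr3R:20378458-20484588), a receptor-like gene of the GDNF receptor family, had 17.8, 17.2 and 24.1 CPM in DomKD, against 4.18, 4.85 and 6.45 CPM in Ctrl. The sodium channel gene para (chrX:16455027-16533096) had 37.5, 31.5 and 27.1 CPM in DomKD, against 7.45, 10.6 and 10.4 CPM in Ctrl. Every DomKD library lay above every Ctrl library at all 3, as the choice of these genes required. Their levels were below those of most members, with mean counts of 145, 167 and 276 a library against a median of 1216. Their log2 fold changes were 2.48 ± 0.62, 2.08 ± 0.43 and 1.78 ± 0.36 (SE; edgeR adjusted p = 0.015, 0.0062 and 0.0050). Without Ctrl A1 the changes were 1.58, 2.03 and 1.30 and none passed (edgeR adjusted p = 0.14, 0.058 and 0.082), and none of the 3 passed with the Zelda list scaling.

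Other strong rises were at higher levels and varied with batch. axo (chr3L:4629604-4687317), which encodes the neurexin-like protein axotactin, had 181, 104.4 and 39.1 CPM in DomKD, against 35.3, 11.4 and 10.6 CPM in Ctrl. Both groups were higher in batch A than in batch B, and DomKD B1 lay close to Ctrl A1, while the change within each batch was alike, 2.02 in batch A and 1.77 in batch B on the log2 scale. nAChRalpha3 (chrX:8276200-8367169), a subunit of the nicotinic acetylcholine receptor whose start carries the GAGA repeats printed above, had 474, 551 and 354 CPM in DomKD, against 174, 121 and 105 CPM in Ctrl. mbl (chr2R:17216549-17379376), the splicing regulator Muscleblind, had 249, 251 and 269 CPM in DomKD, against 63.6, 87.1 and 89.6 CPM in Ctrl, with little spread in DomKD and, as its choice required, no overlap. Its log2 fold change was 1.79 ± 0.16 (SE, edgeR adjusted p = 0.00022), and its adjusted p was 0.043 without DomKD B1, which made it the member still called there. The immunoglobulin superfamily gene tei (chr2R:13623044-13749367) had 432, 386 and 271 CPM in DomKD, against 157, 73.5 and 88.2 CPM in Ctrl.

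Among the most abundant rises was shn (chr2R:11159086-11217394), the zinc finger transcription factor Schnurri of the Dpp pathway, with 2927, 2591 and 1969 CPM in DomKD against 937, 753 and 602 CPM in Ctrl. Its log2 fold change was 1.55 ± 0.17 (SE, edgeR adjusted p = 0.00055). The repressor gene cic, Capicua, had 1002, 980 and 782 CPM in DomKD, against 363, 311 and 294 CPM in Ctrl. The neural transcription factor gene pros had 1246, 1306 and 1374 CPM in DomKD, against 559, 492 and 467 CPM in Ctrl. The groups did not overlap at any of the 3, which the choice of shn required, while cic and pros were named after their values were seen. Over the tested members, 118 of 291 had all DomKD libraries above all Ctrl libraries (40.5%; 17.2% of all tested genes) and 27 had them all below (9.28%; 23.4% of all).

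The falls were fewer, and the 8 largest were called lower under all 5 scalings. That was nearly fixed in advance, since total counts and the Zelda list lower the log2 fold changes of all genes. All 17 members lower under TMM stayed lower under both. Flo2 (chrX:14839376-14933946), which encodes a flotillin of membrane microdomains, had 38.8, 40.1 and 26.5 CPM in DomKD, against 103, 89.9 and 85.7 CPM in Ctrl. ttv (chr2R:14526267-14587917), a heparan sulfate polymerase gene, had 104.1, 116 and 105 CPM in DomKD, against 305, 297 and 301 CPM in Ctrl, with little spread in either group. Mmp2 (chr2R:9611139-9683858), a matrix metalloproteinase gene, had 18.2, 24.7 and 22.9 CPM in DomKD, against 55.8, 52.9 and 60.7 CPM in Ctrl. All DomKD libraries lay under all Ctrl libraries at the 3 genes, as the choice of these genes required. The log2 fold changes were -1.56 ± 0.20, -1.49 ± 0.15 and -1.35 ± 0.24 (SE). Flo2 overlaps 2 genes on its own strand and Mmp2 4, and reads in such stretches are left out by the counter's default.

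Gprk2 (chr3R:31405245-31457873), a kinase of G protein-coupled receptors used in Hedgehog signalling, had 186, 188 and 114 CPM in DomKD, against 337, 269 and 247 CPM in Ctrl. sima (chr3R:30058311-30121798), the fly homolog of hypoxia inducible factor alpha, had 166, 199 and 185 CPM in DomKD, against 362, 306 and 291 CPM in Ctrl. Both fell, without overlap as their choice required, by 1.01 and 0.84 on the log2 scale (edgeR adjusted p = 0.0015 and 0.0036). The phosphodiesterase genes Pde1c (-1.13 ± 0.27) and Pde11 (-0.81 ± 0.23) and timeout (-1.05 ± 0.27), a paralog of timeless, also fell (log2 fold change ± SE). At timeout DomKD A1 was at 37.8 CPM while DomKD A2 and B1 were at 77.6 and 75.7 CPM, against 164, 107 and 121 CPM in Ctrl. Without Ctrl A1 the change at timeout was -0.65 and did not pass (edgeR adjusted p = 0.38), and without DomKD A1 it was -0.80 and passed (0.0043). The remaining falls called by the test were CG41378, Prosap, tai, SNF4Agamma, pum, lilli, ct, jvl and scrib, between -0.81 and -0.45, and CG41378 was the only member of the 17 whose groups overlapped.

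**Figure D4:**
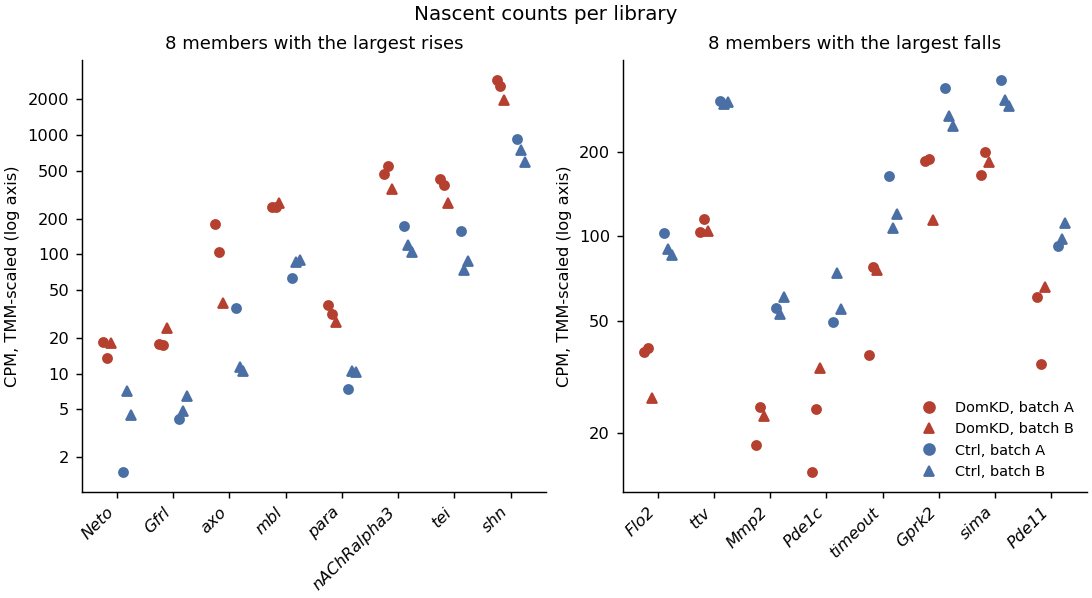
TMM-scaled CPM of each library (log axis; circles, batch A; triangles, batch B) at the 8 members with the largest rises and the 8 with the largest falls among called members averaging 100 counts or more whose groups did not overlap. Every DomKD point lies above (left panel) or below (right panel) every Ctrl point of the same gene by selection. Batch A exceeds batch B in both groups at genes of both panels, among them axo, nAChRalpha3, tei, shn, Flo2 and Gprk2.

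The 5 longest rows lie mostly in pericentromeric sequence and were dilute. Myo81F (chr3R:567076-2532932), a myosin heavy chain gene of 1965857 bases, had 605, 522 and 951 CPM in DomKD, against 386, 612 and 591 CPM in Ctrl. Pzl (chr3R:2554162-3263582), a Piezo-like channel gene, had 307, 272 and 462 CPM in DomKD, against 169, 281 and 247 CPM in Ctrl. In both groups the batch B libraries were higher, so that the groups overlapped although edgeR with the batch term called both higher (0.60 ± 0.15 and 0.79 ± 0.15, SE). CG17684 was called higher as well (0.77 ± 0.17, SE), with the same overlap, and lovit, a vesicular transporter gene, did not pass (0.41, edgeR adjusted p = 0.079). The fifth, kirre (chrX:2740384-3134532), an immunoglobulin gene of myoblast fusion, had 170, 251 and 171 CPM in DomKD, against 156, 110 and 99.1 CPM in Ctrl, without overlap, and passed narrowly (0.57 ± 0.18, SE, edgeR adjusted p = 0.045). All 5 had negative log2 fold changes when scaled on the Zelda list. Signal in Ctrl was 0.21 to 0.60 CPM per kb in these 5 genes, against 63.7 CPM per kb at lola.

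The 7 lists of gene functions covered 126 of the 300 members. Over all tested members 31.3% were higher and 5.84% lower, and over all tested genes 12.1% and 9.64%. Of the 26 long transcription factors all were tested, 13 were higher (50%) and 2 lower, with a median log2 fold change of 0.71, and the tested shorter genes of that list had 42 higher (40.4%) and a median of 0.71 as well. Besides lola, psq and pros, the rises there included mamo (1.37), Eip75B (1.09) and fru (0.95), and the falls were ct, the homeodomain gene cut, and tai, a nuclear receptor coactivator. Of 31 long axon guidance and adhesion genes 12 were higher (38.7%) and none lower, with a median of 0.57, against 33 higher (49.3%) and a median of 0.72 in 67 shorter ones. Rises there included Ptp99A (1.18), Fas3 (1.11) and Dscam1 (0.59). Of 22 long ion channel and neurotransmitter receptor genes 5 were higher (22.7%) and none lower, namely para, nAChRalpha3, eag, Sh and AstA-R1, against 20 of 93 shorter ones (21.5%), and the median over the 22 was 197 counts a library. In these 3 lists the medians of long members were no higher than those of the shorter genes, and all 7 lists' long members had medians from -0.85 to -0.25 with the Zelda list scaling.

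The other lists differed more across the 50 kb limit, without a test of that difference. Their counts stand against 31.3% higher and 5.84% lower over all tested members, and 12.1% and 9.64% over all tested genes. Of 14 long RNA-binding protein genes 7 were higher and 1, pum, was lower, with a median of 0.52, against -0.07 in 47 shorter genes of which 5 were higher and 7 lower. The translational repressor gene pum (chr3R:9066343-9237682) had 400, 435 and 362 CPM in DomKD, against 645, 524 and 541 CPM in Ctrl, whereas msi, Musashi, had 1326, 1284 and 1276 CPM in DomKD against 713, 941 and 705 CPM in Ctrl. Of 15 tested long signalling receptors, kinases and cyclic nucleotide enzymes 5 were higher (33.3%) and 2, Pde1c and Pde11, lower, while the other long phosphodiesterase genes of the list, Pde9 (-0.27) and dnc (0.82), did not pass, with a median of 0.61, against -0.09 in 127 shorter genes. The Dpp receptor gene tkv, with 1596, 1716 and 1889 CPM in DomKD against 938, 872 and 783 CPM in Ctrl, was among the rises, and mam, the Notch coactivator Mastermind, was at -0.03 with overlapping groups. Of 12 long muscle, cytoskeleton and scaffold genes 5 were higher and 1, scrib, lower, with a median of 0.46 against 0.08 in 78 shorter genes. The 6 long fertility genes of the Y chromosome were at low levels (median mean count 92.8), and only kl-5, a dynein heavy chain gene, passed. The 166 tested members in none of the lists had 44 higher (26.5%), 11 lower and a median of 0.43.

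**Figure D5:**
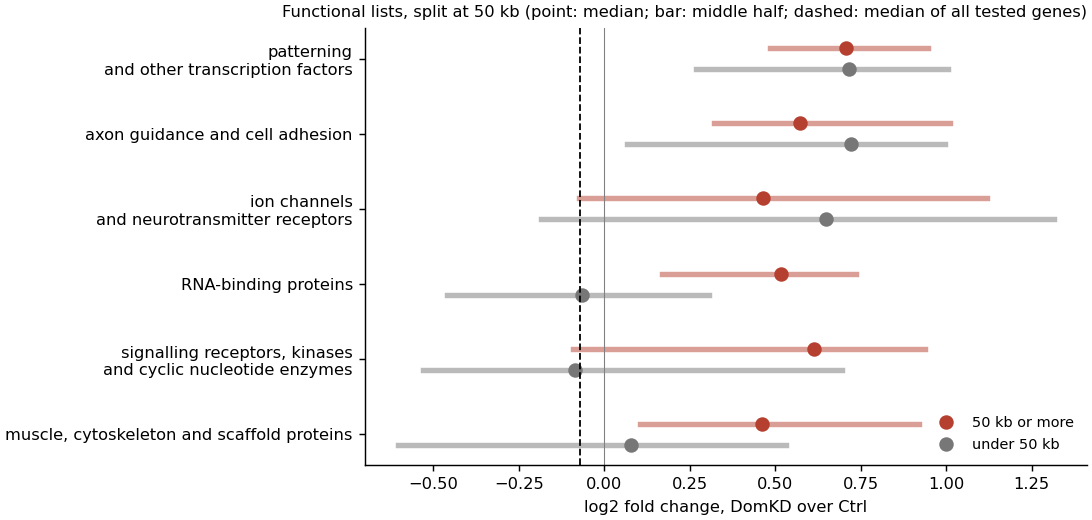
Log2 fold change of DomKD over Ctrl in 6 functional lists (points, median; bars, interquartile range; dashed line, median of all tested genes), for members of 50 kb or more and list genes under 50 kb. With TMM scaling long members lie at 0.46 to 0.71 in each of these lists, and below 0 with the Zelda list scaling, whereas genes under 50 kb lie at 0.65 to 0.72 in the first 3 lists and at -0.09 to 0.08 in the last 3.

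The shift was present in each class of transcript length. Over all tested genes 12.1% were higher and 9.64% lower. Members whose annotated transcripts are all 50 kb or more (134 tested) had a median log2 fold change of 0.46 with 35 higher and 6 lower, and members with a transcript under 10 kb (56 tested) had 0.49 with 23 higher and 5 lower. The 32 members with a shortest transcript of 10 to 20 kb had the highest median, 0.85, with 18 higher and none lower. An example of a short transcript in a long row is twi, whose row spans 62952 bases through a distant annotated start, and which had 833, 828 and 617 CPM in DomKD against 434, 268 and 209 CPM in Ctrl. Members with 5 or more annotated starts were called higher in 23 of 41 cases (56.1%), against 40 of 148 members with 2 to 4 starts (27.0%) and 28 of 100 members with 1 start. The median log2 fold change was 0.49 with 1 start, 0.41 with 2 to 4 and 0.68 with 5 or more. Members with 5 or more starts had more counts (median 3907) than those with 1 (664). Across 289 members the number of starts and the log2 fold change had a rank correlation of -0.03, so that no steady trend was seen. These splits were chosen after seeing the data and were not tested against each other.

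The large chromosome arms were alike in direction. The median of tested members was 0.46 on X, 0.53 on 2L, 0.47 on 2R, 0.55 on 3L and 0.58 on 3R, against medians of all tested genes between -0.14 and 0.06 on these arms. On 3R 23 of 54 members were higher (42.6%) and 7 lower (12.96%), against 12.3% higher and 11.1% lower over all tested genes of the arm, so that the share lower was near that of the arm. On 3L 17 of 57 were higher (29.8%) and none lower, against 12.8% and 10.0% over the arm. The 131 members that overlap no gene on their strand had 36 higher (27.5%), 11 lower and a median of 0.41, and the 158 tested members with such an overlap had 55 higher (34.8%), 6 lower and a median of 0.57. All 9 members below the count minimum overlap another gene on the same strand. Of these, 7 had no count in any library, among them rg and CG15465, which share 1 span of 169106 bases. Reads in stretches shared on a strand are left out by the counter's default, so a count of 0 there sets no upper limit on the signal. Such rows cannot be read as silent.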

How the data were processed

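The authors trimmed GRO-seq reads with cutadapt 2.5, handled molecular identifiers with UMI-tools 1.0, aligned with Bowtie2 to dm6 and counted alignments that had not been deduplicated with featureCounts by strand. The deposited unit is the raw count per gene over the whole gene span, introns included, in 6 libraries, of which 3 were DomKD and 3 Ctrl. PCR copies can therefore add to a count. The SDs given are between libraries and do not separate such copies from other variation. For 99.31% of the 17626 rows matched to the Ensembl 115 annotation (127 rows did not match) the row length equals the annotated span. Sequences come from the NCBI RefSeq dm6 genome, in which 30565 of 30618 annotated start codons read ATG.

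Counts were fitted with edgeR 4.0.16 (glmQLFit robust and glmQLFTest, two-sided) on batch and group with TMM factors, over genes averaging 10 counts or more, with Benjamini-Hochberg adjustment over all of them and a threshold of 0.05. The SE is the log2 fold change divided by the root of F. A prior count of 2 went into log2 CPM. DESeq2 1.42.0, other scalings, filters, covariates and sets of libraries were alternatives. The permutation test planned for the share of counts is not printed, since members were chosen with earlier results known.

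Members, lists and splits were chosen with earlier results of these data known. Genes named in full were, among members, the 8 largest called changes in each direction averaging 100 counts or more with groups that did not overlap, the 5 longest, the 3 densest of each of 4 long bands in Ctrl, up to 3 of highest count in each of 7 lists, and 2 rows on either side of 50 kb. Other members, such as Mp, cic, pros, twi and the further members of lists, were named after their values were seen. The labels do not say that equal replicate numbers come from shared cultures, and a number occurs in both batches, so batch was the covariate. No pair of libraries agreed within sampling noise.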

Additional observations from a re-analysis of the deposited data

How the results depend on the processing

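The difference between the median log2 fold change of long genes and that of all tested genes stayed positive under every alternative run, of which the scalings leave it in place by construction. It was 0.40 to 0.67 with 1 library left out, 0.39 within batch A, 0.68 within batch B and 0.48 over members without same-strand overlap. Counts of members called were less stable, with 1 to 98 higher and 0 to 17 lower when 1 library was left out, the low end being without DomKD B1. They were 33 higher and 44 lower when scaled on total counts (5.16% and 26.3% of all tested genes), and 8 and 113 on the Zelda list (0.93% and 43.9%). With DESeq2, the Zelda list and no batch term they were 3 and 100 (0.84% and 46.3% of all). Without the batch term they were 60 and 9 (8.57% and 6.82% of all). Over the members without same-strand overlap, where fewer genes are counted, they were 36 and 11 (12.1% and 9.64% of all tested genes). Within each batch the group with a single library is assumed to vary like the other. With the replicate number as a block in place of batch, the counts were 41 higher and 4 lower (5.85% and 4.08% of all tested genes). Deviations of DomKD and Ctrl libraries with the same number correlated at -0.36 to 0.24, so the numbers were not taken to pair the samples, and correlations were 0.16 to 0.24 within a batch and -0.36 to -0.10 across batches whatever the number. The difference in share of counts was 0.31 to 1.04 points with 1 library left out, 0.034 within batch A, 1.83 within batch B and -0.17 without same-strand overlap. The cause of these shifts was not tested.

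By band, differences of medians with 1 library left out were 0.38 to 0.57 (50 to 75 kb), 0.43 to 0.77 (75 to 100 kb), 0.45 to 0.68 (100 to 150 kb), 0.48 to 0.76 (150 kb or more), 0.40 to 0.68 (50 to 100 kb) and 0.46 to 0.65 (100 kb or more). Within batch A they were 0.36, 0.41, 0.42, 0.45, 0.38 and 0.43 in that order of bands. Within batch B the values that moved were 0.57 (50 to 75 kb), 0.68 (100 to 150 kb), 0.68 (50 to 100 kb) and 0.66 (100 kb or more). The band of 75 to 100 kb was at 0.78 with no count filter, that of 100 to 150 kb at 0.47 without the batch term and that of 150 kb or more at 0.55 with DESeq2, the Zelda list and no batch term.

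Signs of single genes turned with the scaling. With the Zelda list the log2 fold changes were -0.36 at Myo81F, -0.17 at Pzl, -0.55 at lovit, -0.20 at CG17684, -0.38 at kirre, -0.12 at lola, -0.28 at psq, -0.36 at ed, -0.53 at nmo, -0.63 at Sdc, -0.41 at hth, -0.069 at pyd, -0.83 at SKIP, -0.10 at sick, -0.54 at Ten-a, -0.0091 at AstA-R1, -0.20 at msi, -0.25 at sfl, -0.24 at sdt, -0.49 at kl-3, -0.71 at Sytbeta, -0.080 at ab and -0.18 at NetA. With total counts they were -0.069 at lovit, -0.056 at nmo, -0.15 at Sdc, -0.35 at SKIP, -0.059 at Ten-a, -0.011 at kl-3 and -0.23 at Sytbeta. mam was at 0.024 with RLE and with DESeq2. With 1 library left out nAChRalpha4 ranged from -0.39 to 0.13, mam from -0.35 to 0.24, kl-2 from -0.68 to 0.020, SKIP from -0.21 to 0.40 and Sytbeta from -0.26 to 0.69. The values turned without Ctrl A1 or DomKD A1 for nAChRalpha4 and mam, without DomKD A2 for kl-2 and without DomKD B1 for SKIP and Sytbeta. None of the genes named in this paragraph except Myo81F, lovit, ed, nmo, Sdc, hth, SKIP and Ten-a passed the test with the sign turned, all 8 with the Zelda list. In all, 404 of 588 alternative values for named genes kept sign and call, 131 lost the call, 14 gained it and 39 turned sign.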
